A study of Piaractus mesopotamicus with 9 samples.

Results

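miR-22 was examined in pacu (Piaractus mesopotamicus) myotubes through every reference entry of the normalised count table whose name, without the 3-letter species prefix, is miR-22 followed by a letter, an arm or nothing, so that miR-221 and miR-222 were not included. Of the 1769 entries in that table, 35 were miR-22 entries, and they came from all 13 teleost species used as reference. Entries whose values were identical in the 9 libraries were merged, which left 34 distinct miR-22 count profiles among 953. A further 2 entries of Atlantic cod were in the raw table of 3579 entries but below the filter of a mean of at least 10 counts. They were gmo-miR-22b-3p, with 16 counts over all libraries and 0 to 6 in each, and gmo-miR-22b-5p, with 5 counts over all libraries and 0 to 3 in each.

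The study describes the cells as myotubes, the multinucleated cells that form when muscle precursors fuse. They were grown as primary cultures from the fast-twitch muscle of juvenile pacu, with many fish pooled in a culture. Every culture was grown for 8 days and was then deprived of amino acids, the controls included. The control group (CTR) remained in amino acid-free medium for 36 h, the AA group was given amino acids as DMEM after 12 h, and the IGF1 group was given recombinant gilthead sea bream insulin-like growth factor 1 in amino acid-free medium after 12 h. DMEM differs from the amino acid-free medium in its base as well as in its amino acids, so that these changes cannot be told apart in the AA group. The treatment protocol gives 24 h of supplementation, whereas the sample characteristics give 12 h. Each group had 3 small RNA libraries. The study describes 3 independent cultures without assigning libraries to them, so p-values measure the spread between these libraries.

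MicroRNAs are short RNAs that repress messenger RNAs to which they pair, mainly through a seed near their 5′ end. A hairpin precursor yields a 5p and a 3p arm, of which the more abundant is usually the one loaded into the silencing complex. In mammals miR-22 is processed from the transcript of a noncoding host gene and its 3p arm is the main product. It is abundant in heart and skeletal muscle of mice, where it promotes growth of cardiac muscle cells and represses Sirt1 and Hdac4, which regulate chromatin and transcription. Teleosts carry paralogs that are named with the letters a, b and, in cichlids, c. IGF1 is a known activator of Akt and mTOR signalling in muscle, and amino acids are known activators of mTOR signalling.

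Mature miR-22 sequences were not used here, so entries are described by their names and counts alone. The species prefixes denote zebrafish (dre), common carp (ccr), channel catfish (ipu), Atlantic salmon (ssa), Atlantic cod (gmo), medaka (ola), Nile tilapia (oni), the other cichlids Astatotilapia burtoni (abu), Metriaclima zebra (mze), Neolamprologus brichardi (nbr) and Pundamilia nyererei (pny), and the pufferfishes Takifugu rubripes (fru) and Tetraodon nigroviridis (tni). No pacu sequence was among the references. Because the same reads were counted under several species, near-equal entries are not separate measurements, and which of these forms pacu carries cannot be read from the counts.

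Most miR-22 entries repeated the counts of another miR-22 entry. Entries were joined where each lay within 2% of at least 1 other entry of the group in every library, a grouping chosen after the values were seen, and the 34 profiles fell into 10 count groups. The group of dre-miR-22a-3p held 11 entries of 11 species, which lay within 23 counts of each other in every library although the lowest count was 863059. In addition to dre-miR-22a-3p it comprised ssa-miR-22a-3p and the miR-22a entries of abu, ccr, fru, ipu, mze, nbr, oni, pny and tni. The group of dre-miR-22b-3p also held 11 entries. These were ssa-miR-22b-3p, the miR-22b entries of ccr, fru, ipu and tni, and the miR-22c entries of the 5 cichlids, with a largest gap of 20 counts or 3.15% between members.

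The letter b therefore did not denote 1 level. Entries named miR-22b were found in 3 groups of 3p or unlabelled-arm entries, and the cichlid entries named miR-22c lay with the miR-22b entries of carp, catfish, pufferfishes, salmon and zebrafish. The first of the 3 groups held abu-miR-22b, oni-miR-22b and ola-miR-22, the only miR-22 entry of medaka, within 6 counts of each other. The second held mze-miR-22b, nbr-miR-22b and pny-miR-22b within 4 counts. Of the remaining profiles, dre-miR-22a-5p and ssa-miR-22a-5p were identical, and dre-miR-22b-5p, ssa-miR-22b-5p, gmo-miR-22a-3p, gmo-miR-22a-5p and gmo-miR-22a-2-5p each stood alone.

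Levels of the 10 groups spanned 38445 times from the highest to the lowest. The mean normalised count over the 9 libraries was 1222066 for dre-miR-22a-3p, followed by 124680.2 for abu-miR-22b, which was 9.80 times lower. The major 5p entry, dre-miR-22a-5p, had a mean of 46176 and lay 26.5 times below its 3p arm, and mze-miR-22b had a mean of 26793 and lay 45.6 times below dre-miR-22a-3p. A gap of 36.9 times separated these abundant groups from the rest.

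Below that gap dre-miR-22b-5p had a mean normalised count of 726, dre-miR-22b-3p of 650.4, gmo-miR-22a-3p of 634 and ssa-miR-22b-5p of 249. The lowest groups were gmo-miR-22a-5p, with a mean of 58.1, and gmo-miR-22a-2-5p, with a mean of 31.8 and raw counts so low that the counting error was 28.9% in its lowest library. The order of neighbouring groups was the same in 9 of 9 libraries except in the middle. There dre-miR-22b-3p lay below dre-miR-22b-5p in 6 of 9 libraries and gmo-miR-22a-3p lay below dre-miR-22b-3p in 7 of 9, so that these 3 levels were not separated beyond their spread.

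**Figure D1:**
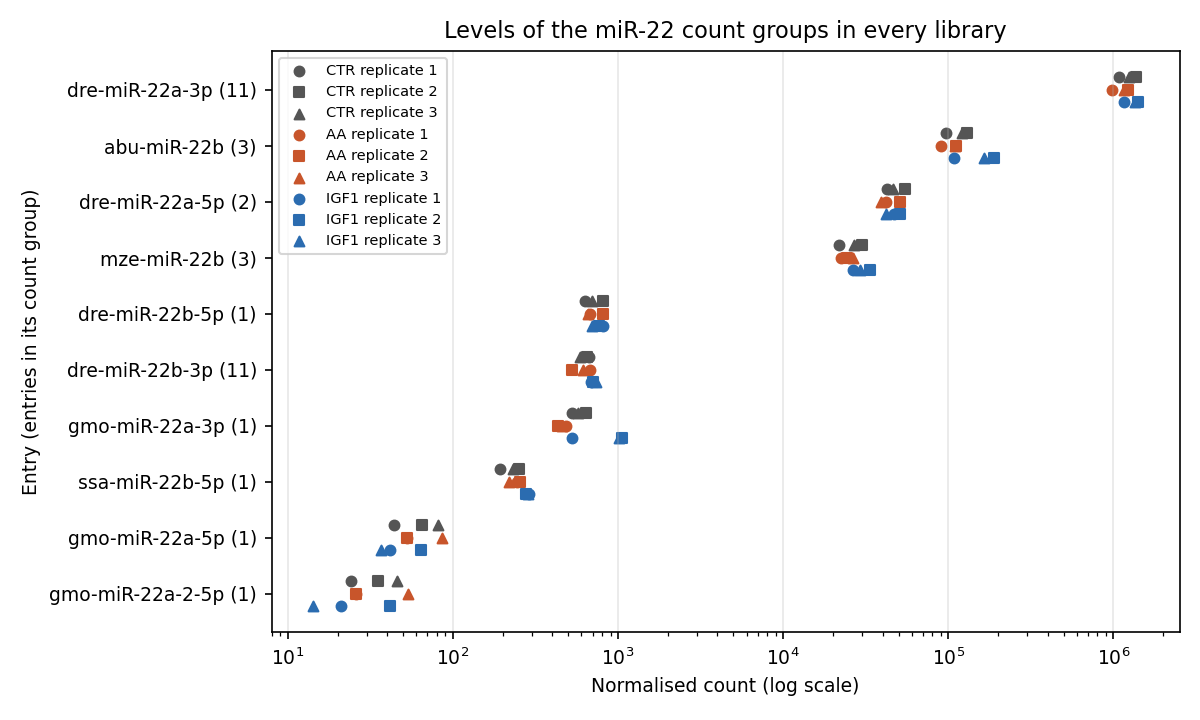
Normalised counts (horizontal axis, log scale) of the 10 miR-22 count groups, each named by its zebrafish or alphabetically first entry with the number of entries in parentheses. Points are single libraries, coloured by group and shaped by replicate number. Levels fall from a mean of 1222066 for dre-miR-22a-3p to 31.8 for gmo-miR-22a-2-5p, and within most count groups the libraries of CTR, AA and IGF1 overlap.

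The position of miR-22 in these cells was read from the zebrafish entries, whose counts summed, in units of 1e6, to between 7.63 and 12.9 per library. Among 209 zebrafish entries dre-miR-22a-3p ranked 2 with 11.5% of the counts, and dre-miR-22a-5p ranked 19 with 0.436%. Both b arms were rare, with dre-miR-22b-5p at rank 101 and 0.00687% and dre-miR-22b-3p at rank 103 and 0.00616%. Together the 4 zebrafish entries amounted to 11.6% ± 1.17 (CTR), 12.1% ± 0.448 (AA) and 12.0% ± 0.887 (IGF1) of that sum (SD, n = 3). The groups overlapped, and the exact two-sided permutation test gave p = 0.7 for AA against CTR, 0.7 for IGF1 against CTR and 1 for AA against IGF1.

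A comparable share was obtained with most of the references. In 11 species the miR-22 entries held between 10.1% and 15.5% of the counts of that species in every library, with species means from 11.6% to 14.1%. Medaka and cod stood apart. The single medaka entry, ola-miR-22, held 4.13% to 7.99% of the medaka counts, and the 5 cod entries held 0.0135% to 0.0299% of the cod counts. Species differ in the number of entries behind these shares, so the shares have different denominators.

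**Figure D2:**
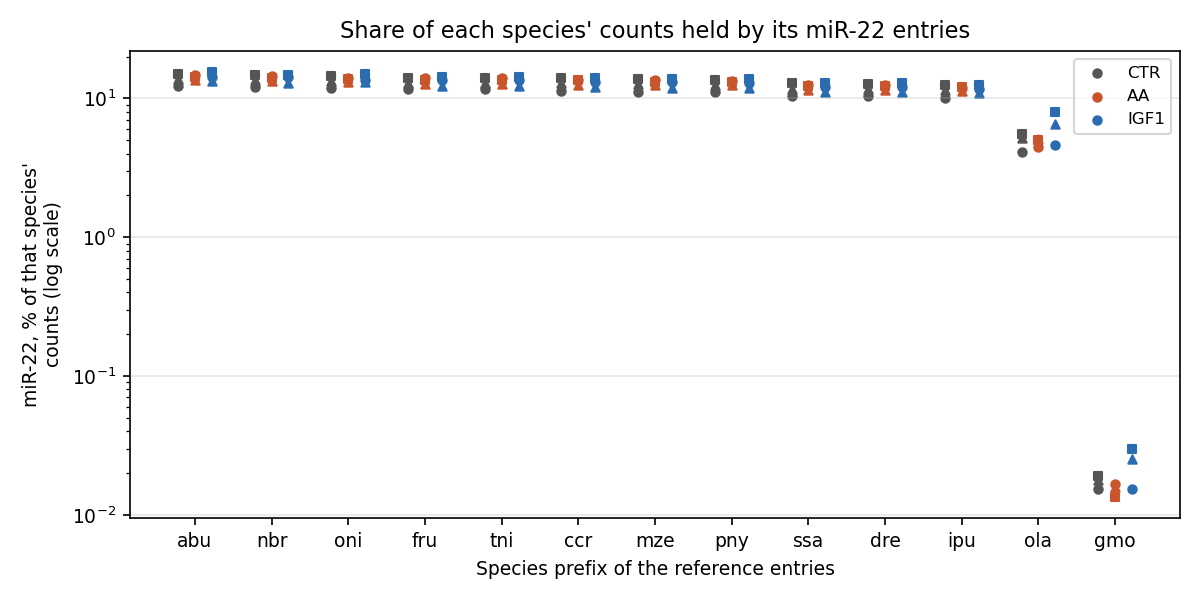
Percentage of the counts of each reference species held by its miR-22 entries (vertical axis, log scale), with species prefixes on the horizontal axis and 1 point per library, coloured by group. In 11 species the share lies between 10.1% and 15.5%, whereas ola lies between 4.13% and 7.99% and gmo between 0.0135% and 0.0299%.

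The markers of muscle were miR-499, miR-206, miR-133 and miR-1. Their zebrafish entries held 0.0439% to 0.0683% of the zebrafish total in CTR, whereas AA ranged from 0.194% to 0.276% and IGF1 from 0.0757% to 0.0851%. The mesenchymal miR-199 and miR-214 held 5.27% to 7.34% over all libraries, more than the muscle markers in every library. The markers therefore do not establish how much of a culture was muscle. Markers of blood, nerve and epithelium were at most 0.00137%, 0.00218% and 0.00082%, and the endothelial miR-126 was at 0.013% to 0.0242%. The part of cell composition in the miR-22 levels was not tested, and in whole cultures fewer cells of a type and less RNA per cell cannot be told apart.

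IGF1 replicates 2 and 3 stood apart from the other 7 libraries in some miR-22 entries. In 15 of the 34 profiles, from 3 count groups, both libraries were above all others, which held for 6.51% of all 953 profiles. These were the groups of abu-miR-22b, dre-miR-22b-3p and gmo-miR-22a-3p. The 11 near-equal entries of the dre-miR-22b-3p group made up most of the 15. For dre-miR-22b-3p, IGF1 replicate 1 at 687 was also above all CTR and AA libraries, with IGF1 replicates 2 and 3 at 707 and 737. IGF1 replicates 2 and 3 were also high for a few entries of other miRNAs, which were picked after their values were seen. As a percentage of dre-miR-92a-3p, ola-miR-92a was at 7.74% and 7.19% in IGF1 replicates 2 and 3 and between 2.23% and 2.81% elsewhere. As a percentage of dre-miR-26a-5p, ola-miR-26 was at 8.83% and 8.21% in these libraries and between 3.48% and 4.59% elsewhere. The fold changes of these groups and of dre-miR-22a-3p are therefore given with and without them. As only IGF1 replicate 1 then remains, these values are given as effect sizes, without and with the replicate number as a block, a further term of the fit. The lone library is assumed to vary like the other groups. IGF1 replicates 2 and 3 were chosen for being the highest in the 3 count groups. They were also the higher 2 of the 3 IGF1 libraries for dre-miR-22a-3p. In the fit without the block, lower IGF1 values without them therefore follow from the choice and are no test. For dre-miR-22a-3p and abu-miR-22b replicate 1 was also the lowest in every group. Without the block the remaining IGF1 library is thus set against groups that keep all 3 numbers. With the block the AA against IGF1 value of dre-miR-22a-3p was -0.22 with all libraries and -0.21 without IGF1 replicates 2 and 3 (edgeR).

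The most abundant member, dre-miR-22a-3p, had normalised counts of 1082568, 1363205 and 1242325 in CTR replicates 1 to 3, of 976312, 1232121 and 1166459.6 in AA, and of 1167294, 1419984 and 1348329 in IGF1. The corresponding means were 1229366 ± 140766, 1124964 ± 132857 and 1311869 ± 130231 (SD, n = 3). In every group replicate 1 was the lowest and replicate 2 the highest, and the ranges of the 3 groups overlapped. The entry tni-miR-22a had 1082571, 1363217 and 1242320.3 in CTR, 976304, 1232118 and 1166461 in AA, and 1167300.0, 1419995 and 1348328 in IGF1. For ccr-miR-22a the values were 1082566, 1363226 and 1242320.3 in CTR, 976304, 1232129 and 1166463 in AA, and 1167291, 1419991 and 1348319.8 in IGF1. These 2 entries thus carried the measurement of dre-miR-22a-3p again.

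With edgeR's quasi-likelihood test and Benjamini-Hochberg adjustment over all 1769 entries, dre-miR-22a-3p was at -0.13 on the log2 scale in AA relative to CTR (SE 0.12, adjusted p = 0.808). The change was 0.09 (SE 0.12, adjusted p = 0.953) between IGF1 and CTR. Between AA and IGF1 it was -0.22 (SE 0.12, adjusted p = 0.440). None of these passed. The sign of the AA comparisons depended on the scaling, since without composition factors dre-miR-22a-3p was at 0.05 against CTR and 0.01 against IGF1, while the median of all entries moved by 0.19 and 0.23 on the log2 scale. With IGF1 replicates 2 and 3 left out, the IGF1 against CTR value was -0.09 without the block and 0.08 with it (edgeR). The AA against IGF1 value was then -0.04 without the block and -0.21 with it (edgeR).

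Its 5p arm, dre-miR-22a-5p, was at 42457, 54698 and 46069 in CTR, 41817, 51264 and 39225 in AA, and 47205, 51079 and 41764 in IGF1. The groups overlapped fully, with replicate 2 the highest in each. The edgeR log2 fold changes were -0.12 for AA against CTR, -0.04 for IGF1 against CTR and -0.08 for AA against IGF1, each with a SE of 0.13, and without composition factors the AA values were 0.08 and 0.14.

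The entries of the minor zebrafish paralog held far fewer counts. Its 3p arm, dre-miR-22b-3p, was at 663, 651 and 590.2 in CTR, 678, 527 and 613 in AA, and 687, 707 and 737 in IGF1. All 3 IGF1 libraries were above all CTR and AA libraries, by a small margin, since the highest AA library was at 678 and the lowest IGF1 library at 687. The edgeR log2 fold changes were -0.07 for AA against CTR, 0.15 for IGF1 against CTR (adjusted p = 0.953) and -0.22 for AA against IGF1 (adjusted p = 0.547), each with a SE of 0.14. Without composition factors the AA values turned to 0.14 and 0.02. With IGF1 replicates 2 and 3 left out, IGF1 against CTR was 0.10 without the block and -0.04 with it, and AA against IGF1 was -0.17 and -0.03 (edgeR). The counting error of this entry was 4.94% in its lowest library, which exceeded that margin.

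For the 5p arm of the same paralog, dre-miR-22b-5p, the normalised counts were 634, 808 and 692 in CTR, 676, 805 and 654 in AA, and 806, 764 and 692 in IGF1. The groups overlapped in every comparison. Its edgeR log2 fold changes were 0.08 for IGF1 against CTR and -0.08 for AA against IGF1, each with a SE of 0.14, and that for AA against CTR was at 0.00 within the same error. The salmon entry ssa-miR-22b-5p, which was not near-equal to the zebrafish one, was at 193, 251 and 230.3 in CTR, 246, 255 and 218 in AA, and 289, 277 and 286 in IGF1. Its IGF1 libraries lay above all others, with an edgeR log2 value of 0.33 against CTR (SE 0.16, adjusted p = 0.847) and of -0.24 for AA against IGF1 (SE 0.16, adjusted p = 0.547).

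The cichlid and medaka form represented by abu-miR-22b was at 97553, 130182 and 120907 in CTR, at 90368, 111060.1 and 110618 in AA, and at 108579, 188338 and 164516 in IGF1. IGF1 replicates 2 and 3 exceeded all other libraries, whereas IGF1 replicate 1 lay below 2 of the 3 CTR libraries and 2 of the 3 AA libraries. By edgeR its log2 fold change was -0.16 (SE 0.18, adjusted p = 0.830) for AA against CTR and 0.40 (SE 0.18, adjusted p = 0.800) for IGF1 against CTR. For AA against IGF1 it was -0.56 (SE 0.18, adjusted p = 0.195), and with the replicate number as a block it was -0.53 (adjusted p = 0.00203), just under the size threshold of 0.55. Without IGF1 replicate 1 the value was -0.76 and passed (edgeR, adjusted p = 0.0139). With IGF1 replicates 2 and 3 left out it was -0.05 without the block and -0.25 with it (edgeR), and the IGF1 against CTR value was -0.11 and 0.09. The smaller values follow from leaving out the highest libraries. Replicate 1 was also the lowest in every group, which the fit without the block does not take into account.

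The second cichlid form, mze-miR-22b, had normalised counts of 21732, 30047 and 26834 in CTR, 22323, 24406 and 26522 in AA, and 26566, 33605 and 29098 in IGF1. Every AA library was below every IGF1 library, by 26522 against 26566 at the nearest point. The counting error of this entry was 0.732% in its lowest library, which exceeded that margin. Its edgeR log2 fold changes were -0.10 for AA against CTR, 0.18 for IGF1 against CTR and -0.28 for AA against IGF1 (adjusted p = 0.435), each with a SE of 0.14. Without composition factors the AA against CTR value was 0.09, and the AA against IGF1 value was smaller in size, as given below.

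The entry with the largest edgeR fold change was gmo-miR-22a-3p, the 3p entry of cod, a minor form with 399 to 1054 counts per library. It was at 526, 638 and 574 in CTR, 481, 435 and 454 in AA, and 527, 1060.4 and 1009 in IGF1. All 3 AA libraries lay below all CTR and IGF1 libraries, and IGF1 replicate 1 lay at the level of CTR replicate 1, whereas IGF1 replicates 2 and 3 were above every other library. By edgeR it was at -0.34 (SE 0.23, adjusted p = 0.775) for AA against CTR and at 0.57 (SE 0.23, adjusted p = 0.600) for IGF1 against CTR. The AA against IGF1 log2 fold change was -0.91 (SE 0.23) and its adjusted p of 0.0571 missed the threshold of 0.05.

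Other fits put gmo-miR-22a-3p past that threshold. Its AA against IGF1 log2 fold change was -0.92 with DESeq2 (adjusted p = 0.00335) and -0.86 with the replicate number as a block in edgeR (adjusted p = 0.0155). With IGF1 replicates 2 and 3 left out it was -0.19 both without and with the block (edgeR), a smaller value that follows from leaving out the highest libraries. With single libraries left out the adjusted p of edgeR ranged from 0.00790 to 0.313. The IGF1 against CTR value was -0.15 in both fits without the 2 libraries.

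The remaining cod entries were near the counting limit. The lowest member, gmo-miR-22a-2-5p, was at 24.0, 35.0 and 46.1 in CTR, 25.7, 25.7 and 53.1 in AA, and 21.1, 41.2 and 14.1 in IGF1, and its raw counts ran from 12 to 49. The companion entry gmo-miR-22a-5p ranged from 44.2 to 80.6 in CTR, from 52.5 to 85.6 in AA and from 36.5 to 64.4 in IGF1. Both overlapped between all groups, with edgeR SEs of 0.43 and 0.31 on the log2 scale, so that changes of the size seen for the abundant entries were not detectable at this depth.

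**Figure D3:**
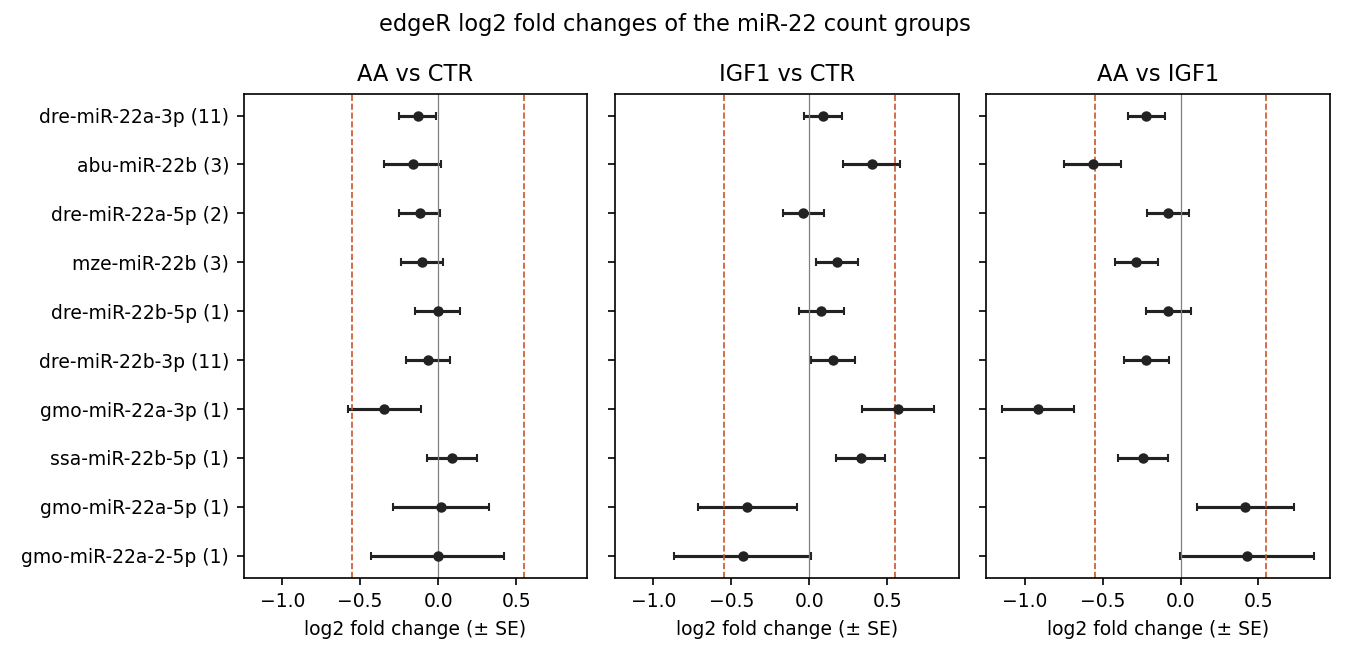
Log2 fold changes from edgeR (points) with SE (bars) of the 10 miR-22 count groups, ordered by level, for AA against CTR, IGF1 against CTR and AA against IGF1. Dashed lines mark the size threshold of 0.55 in either direction. gmo-miR-22a-3p at -0.91 and abu-miR-22b at -0.56 lie past it in AA against IGF1, and gmo-miR-22a-3p at 0.57 lies past it in IGF1 against CTR. None of these passed the adjusted p.

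For a call, a profile needed an adjusted p of at most 0.05 over all entries and a change of 0.55 or more on the log2 scale in either direction (1.46-fold). None of the 34 miR-22 profiles was called by edgeR in AA against CTR, where 2.31% of all 953 profiles were. At an unadjusted p under 0.05 there were 0, and DESeq2 called 0, with a background of 2.83%. In IGF1 against CTR edgeR called 0 of 34 (background 0.21%), 1 had an unadjusted p under 0.05, and DESeq2 called 0 (background 1.15%). For AA against IGF1 edgeR called 0 of 34 (background 2.1%), 4 had an unadjusted p under 0.05, and DESeq2 called 1, gmo-miR-22a-3p (background 2.94%). The counts of calls are near the background in all 3 comparisons. The share of all profiles with an unadjusted p under 0.05 was not computed, so those counts have no background. In the same test 14 of 15 profiles of the 4 muscle miRNAs named above were called higher in AA than in CTR, with a median over the 15 of 2.04 on the log2 scale.

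The replicate numbers were taken to pair the libraries, as libraries of the same number deviated together. With the number as a block, edgeR called 0 profiles in AA against CTR (background 3.88%), 0 in IGF1 against CTR (background 1.57%) and 1, gmo-miR-22a-3p, in AA against IGF1 (background 4.83%). By the adjusted p of the block alone, with no limit on size, the counts were 0 (background 6.82%), 3 (background 3.36%) and 15 (background 12.2%). The 3 profiles were the abu-miR-22b group, higher in IGF1 than in CTR. The 15 profiles belonged to 3 count groups, those of dre-miR-22a-3p, abu-miR-22b and gmo-miR-22a-3p, and were all lower in AA than in IGF1. As 11 of them were near-equal entries of the first group and 3 of the second, the 15 amount to 3 measurements. Likewise the 3 profiles of IGF1 against CTR amount to 1. The value of dre-miR-22a-3p in that fit was -0.22 (edgeR with block, adjusted p = 0.0223). The block was not run without composition factors, a scaling at which the fit without the block gave 0.01.

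Over the members, log2 fold changes were small and mostly of 1 sign. The median of the 34 profiles was -0.10 in AA against CTR, where that of all 953 profiles was -0.04, and 32 of 34 profiles were below 0. It was 0.15 in IGF1 against CTR, where that of all profiles was 0.02, with 31 of 34 above 0. The AA against IGF1 median was -0.22 against -0.06 for all profiles, with 32 of 34 below 0. As near-equal entries repeat each other, the same counts over the 10 groups were 8 below 0, 7 above 0 and 8 below 0. The medians of all profiles lay on the same side of 0 in each comparison. Signs were not counted over all 953 profiles, so the sign counts have no background. The comparisons share libraries and are not separate observations, and scaling without composition factors moved all profiles by a median of 0.19 in AA against CTR and 0.23 in AA against IGF1. The 4 most abundant groups were then above 0 in AA against CTR, while in AA against IGF1 abu-miR-22b at -0.32 and mze-miR-22b at -0.05 remained below it.

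The libraries of AA and CTR did not overlap for 1 of 34 profiles, gmo-miR-22a-3p, which is lower in AA, where 11.9% of all profiles did not overlap. IGF1 and CTR did not overlap for 12 profiles (background 10.8%), all higher in IGF1, from the groups of dre-miR-22b-3p and ssa-miR-22b-5p. AA and IGF1 did not overlap for 16 profiles (background 12.2%), all lower in AA, from the groups of mze-miR-22b, dre-miR-22b-3p, ssa-miR-22b-5p and gmo-miR-22a-3p. The 11 near-equal entries of the dre-miR-22b-3p group accounted for most of the last 2 counts, and these counts use all 3 IGF1 libraries. They rest on normalised counts and depend on the scaling.

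Within replicate numbers the order of CTR, AA and IGF1 was regular in 3 of the 10 count groups. AA lay below CTR and CTR below IGF1 in all 3 numbers for 15 of 34 profiles, from the groups of dre-miR-22a-3p, abu-miR-22b and gmo-miR-22a-3p, and for 3.57% of all profiles. As 11 of the 15 were near-equal entries of the first group and 3 of the second, they amount to 3 measurements. Other groups were mixed, as in dre-miR-22a-5p, where the log2 difference of IGF1 from CTR was 0.15, -0.10 and -0.14 in numbers 1 to 3. For dre-miR-22a-3p the log2 difference of AA from CTR was -0.15, -0.15 and -0.09 in numbers 1 to 3, and that of IGF1 from CTR was 0.11, 0.06 and 0.12. The differences were thus of similar size in each number. They rest on normalised counts and depend on the scaling. As a share of zebrafish counts, the 4 zebrafish miR-22 entries, mostly dre-miR-22a-3p, were at 10.4% (CTR), 12.4% (AA) and 12.1% (IGF1) in number 1. By that share AA was above IGF1 in 2 of 3 numbers. For abu-miR-22b the IGF1 difference was 0.15, 0.53 and 0.44, and for gmo-miR-22a-3p it was 0.00, 0.73 and 0.81, so that in both entries it was larger in numbers 2 and 3 than in number 1. AA was below IGF1 in all 3 numbers for 30 of 34 profiles, from 6 of the 10 groups, and for 26.9% of all profiles.

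The order of the replicates was also shared between groups. Replicate 1 was below replicate 3 and replicate 3 below replicate 2 in CTR, AA and IGF1 alike for 14 of 34 profiles, the whole groups of dre-miR-22a-3p and abu-miR-22b, against 7.45% of all profiles. For dre-miR-22a-3p the spread between numbers within a group, from 1082568 to 1363205 in CTR, was wider than the differences between group means.

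**Figure D4:**
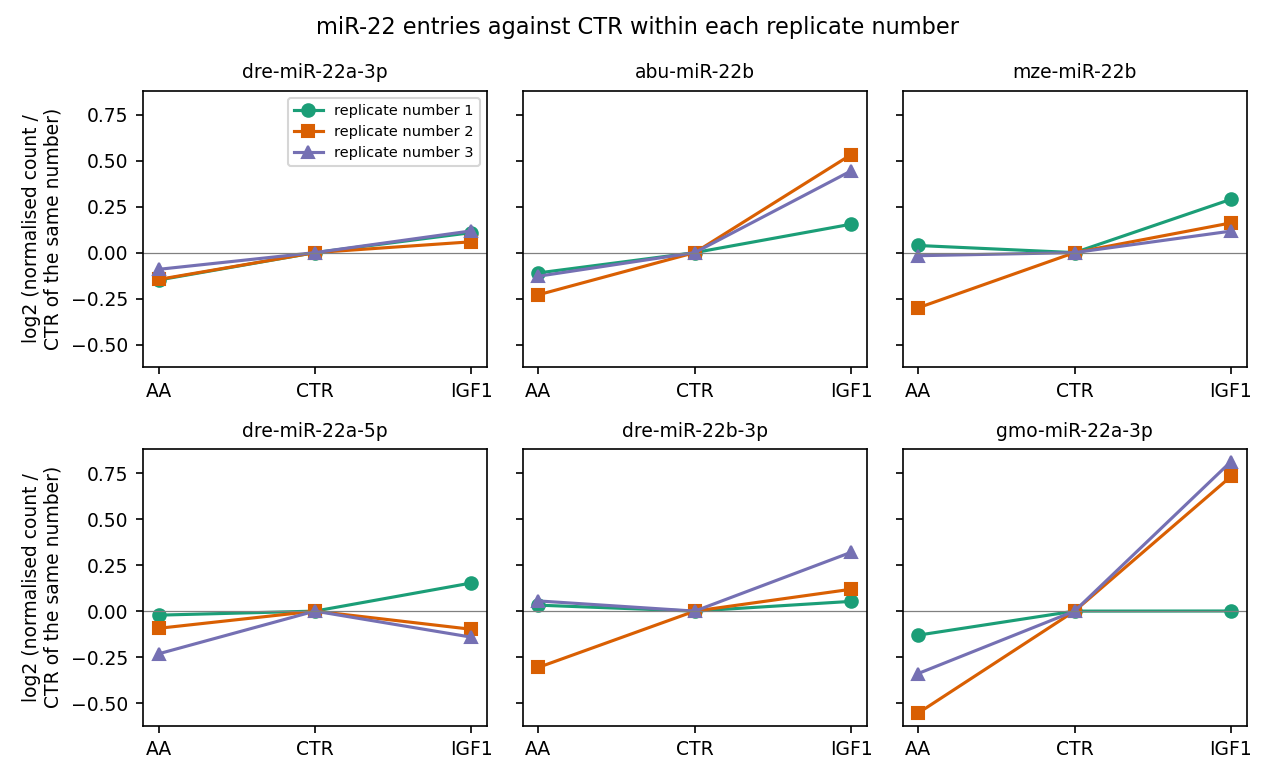
Log2 of the normalised count relative to the CTR library of the same replicate number (vertical axis) in AA, CTR and IGF1 for 6 miR-22 entries, with 1 line per replicate number and CTR at 0. For dre-miR-22a-3p the lines run together from -0.15, -0.15 and -0.09 in AA to 0.11, 0.06 and 0.12 in IGF1, whereas for gmo-miR-22a-3p numbers 2 and 3 rise to 0.73 and 0.81 and number 1 stays at 0.00.

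Ratios within a library compare arms and paralogs without any scaling. The 3p to 5p ratio of the a form, dre-miR-22a-3p over dre-miR-22a-5p, was 25.5, 24.9 and 27.0 in CTR, 23.3, 24.0 and 29.7 in AA, and 24.7, 27.8 and 32.3 in IGF1. The group means were 25.8 ± 1.05, 25.7 ± 3.51 and 28.3 ± 3.80 (SD, n = 3) and the groups overlapped. The exact two-sided permutation test on the log2 ratio gave p = 1 for AA against CTR and p = 0.5 for both other comparisons. With 3 libraries against 3 the exact permutation test cannot go below p = 0.1.

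For the zebrafish b form the arms were near equal. The 3p to 5p ratio, dre-miR-22b-3p over dre-miR-22b-5p, was 1.05, 0.806 and 0.852 in CTR, 1.00, 0.654 and 0.937 in AA, and 0.853, 0.926 and 1.06 in IGF1, with means of 0.901 ± 0.127, 0.865 ± 0.185 and 0.948 ± 0.108 (SD, n = 3). The exact permutation p-values were 0.8, 0.5 and 0.7 for AA against CTR, IGF1 against CTR and AA against IGF1. The b form ratio depended on the reference, since the salmon 5p entry was lower than that of zebrafish. For ssa-miR-22b-3p over ssa-miR-22b-5p it ran from 2.08 to 3.45, with a mean of 2.84 ± 0.526 for CTR, 2.52 ± 0.127 for IGF1 and 2.55 ± 0.417 for AA (SD, n = 3). In all 9 libraries the ratio of the a form, at 23.3 or more, was above that of the b form with either reference.

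The a and b forms were compared as zebrafish entries, and which forms pacu carries cannot be read from these ratios. Here dre-miR-22a-3p exceeded dre-miR-22b-3p by 1441 to 2339 times, averaging 1944 ± 269 (CTR), 1894 ± 449 (AA) and 1845 ± 155 (IGF1) times (SD, n = 3). The exact permutation p-values were 0.8, 0.6 and 1. On the 5p side the excess of the a form was smaller. The ratio of dre-miR-22a-5p to dre-miR-22b-5p was 67.0, 67.7 and 66.5 in CTR, 61.9, 63.7 and 59.9 in AA, and 58.5, 66.9 and 60.4 in IGF1. All AA libraries were below all CTR libraries, with a log2 difference of -0.12, at the smallest p of 0.1 that the exact permutation test can give. After adjustment over the 24 ratio and share tests the p was 0.933, as for every other test of the family with a p of 0.7 or less. The separation depended on the reference. The salmon a and b 5p entries had raw counts of 32005 and 160 in CTR replicate 3 and of 47874 and 238 in AA replicate 2. Their ratio was thus slightly higher in that AA library than in that CTR library. The counting error of ssa-miR-22b-5p was 7.91% in its lowest library, and the salmon ratio was not tested.

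The ratio of abu-miR-22b to abu-miR-22a, added after its values were seen, was uniform in 7 libraries. It was 9.01%, 9.55% and 9.73% in CTR, 9.26%, 9.01% and 9.48% in AA, and 9.30%, 13.3% and 12.2% in IGF1. Only IGF1 replicates 2 and 3 left the range of 9.01% to 9.73% that held the other 7 libraries. The group means were 9.43% ± 0.375, 9.25% ± 0.235 and 11.6% ± 2.05 (SD, n = 3), with an exact permutation p of 0.3 for IGF1 against CTR and of 0.2 for AA against IGF1. For mze-miR-22b over mze-miR-22a, also added, the means were 2.12% ± 0.103, 2.18% ± 0.173 and 2.27% ± 0.105, and the groups overlapped.

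For gmo-miR-22a-3p, the ratio to dre-miR-22a-3p was 0.0486%, 0.0468% and 0.0462% in CTR, 0.0492%, 0.0353% and 0.0389% in AA, and 0.0451%, 0.0747% and 0.0748% in IGF1. Here too IGF1 replicates 2 and 3 were above the other 7 libraries. In this ratio AA replicate 1 was the highest of the AA and CTR libraries, and the exact permutation p was 0.4 for AA against CTR, 0.4 for IGF1 against CTR and 0.2 for AA against IGF1.

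**Figure D5:**
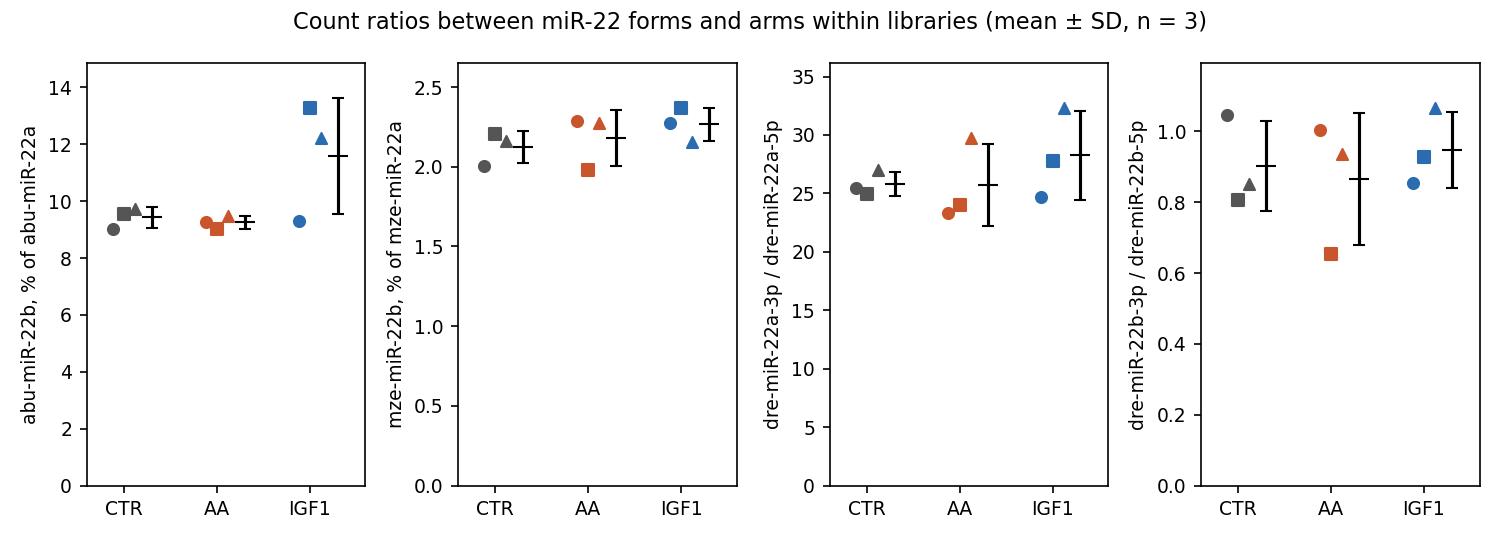
Count ratios within libraries for abu-miR-22b as a percentage of abu-miR-22a, mze-miR-22b as a percentage of mze-miR-22a, and the 3p to 5p ratios of the zebrafish a and b forms, with 1 point per library shaped by replicate number and black bars for the mean and SD of 3 libraries. IGF1 replicates 2 and 3 are at 13.3% and 12.2% for abu-miR-22b against 9.01% to 9.73% elsewhere, and the zebrafish a form ratio is at 23.3 or more where the zebrafish b form ratio is at 1.06 or less.

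The profiles most like dre-miR-22a-3p over the 9 libraries were sought among 61 other miRNA numbers with a mean of at least 1000 normalised counts, using the root mean square difference of centred log2 values. The nearest was pny-miR-100 at 0.0513, followed by mze-miR-27b at 0.0665 and dre-miR-23b-3p at 0.0666, where the median over the 61 numbers was 0.192. The root mean square spread of dre-miR-22a-3p itself was 0.162, the difference that a flat profile would have. Like miR-22, pny-miR-100 was lowest in replicate 1 of each group, at 271084, 239180.2 and 302439 in CTR, AA and IGF1. None of the 3 was called by edgeR in any comparison, and the likeness is a description over libraries that share replicate numbers.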

How the data were processed

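Small RNA libraries (3 each of CTR, AA and IGF1) were grouped by the sample labels. The authors trimmed reads (Trimmomatic, after FastQC 0.11.8), aligned them by Bowtie2 against miRBase mature miRNAs from 13 teleosts and deposited raw counts per entry. The deposited normalised counts are a signal, in that the authors divided each library's counts by 1 DESeq2 size factor (0.695 to 1.36). The submitters' notes name the build GRCz11 without a role. The handling of reads that match more than 1 entry is not given in the sources used.

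Raw counts were tested by the quasi-likelihood method of edgeR 4.0.16 under R 4.3.3 (TMM factors, group as the sole term over all 9 libraries, mean of at least 10 counts, 1769 entries), and Benjamini-Hochberg adjustment ran over all entries. The filter and thresholds follow the study's methods. Standard errors were derived from the fold change and its F statistic. Ratios and shares were compared by exact two-sided permutation tests, 15 planned and 9 added after the values were seen. The edgeR fit without a block was tested on simulated counts of independent libraries, and the permutation test on small sets with known answers. The fit with the replicate block was not tested in this way. Zebrafish counts, in units of 1e6, were 7.63 to 12.9 per library, at which counting error is small for abundant entries and limits the lowest cod entries.

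The members, gene lists and tests were chosen with earlier results of these data known. A fixed comparison list of other miRNAs is not reported here. Values in every library are given for the zebrafish entries, tni-miR-22a, ccr-miR-22a, the highest and lowest profiles and called profiles. The 3 profiles of other numbers most like dre-miR-22a-3p are named with their measure of likeness. The entries abu-miR-22b, mze-miR-22b, gmo-miR-22a-3p, ssa-miR-22b-5p, ola-miR-26 and ola-miR-92a were singled out after their values were seen. Libraries of the same replicate number correlated in their deviations from the group means across profiles (0.266 to 0.553 in 9 pairs, against -0.471 to 0.147 in 18 pairs of different numbers). The pairing rests on this correlation, as no label explains the numbers. Alternatives were DESeq2 1.42.0, other scaling factors and filters, distinct profiles, zebrafish entries, a fit of 2 groups, the replicate block, calls by adjusted p, and leaving out each library. Added after seeing the data were the block on distinct profiles or by adjusted p alone, each replicate number left out of all groups, salmon entries for the arm ratios, and IGF1 replicates 2 and 3 left out together, without and with the replicate block.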

Additional observations from a re-analysis of the deposited data

Results flagged for a closer look

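In 3 count groups the AA library was below and the IGF1 library above the CTR library of the same replicate number in all 3 numbers, although edgeR without a block called neither comparison with CTR for any of them, and for gmo-miR-22a-3p the IGF1 difference was 0.00 on the log2 scale in number 1. The difference is the AA against IGF1 log2 fold change of edgeR, which was -0.22 for dre-miR-22a-3p (adjusted p = 0.440), -0.56 for abu-miR-22b (adjusted p = 0.195) and -0.91 for gmo-miR-22a-3p (adjusted p = 0.0571). With the replicate number as a block they were -0.22, -0.53 and -0.86 (edgeR, adjusted p = 0.0223, 0.00203 and 0.0155), of which only gmo-miR-22a-3p also passed the size threshold. With IGF1 replicates 2 and 3 left out they were -0.04, -0.05 and -0.19 without the block and -0.21, -0.25 and -0.19 with it (edgeR). As these libraries were chosen for being the highest in abu-miR-22b and gmo-miR-22a-3p, the smaller values of those entries follow from the choice. For dre-miR-22a-3p and abu-miR-22b replicate 1 was also the lowest in every group, which the fit without the block does not take into account. The order is that of the normalised counts. Without composition factors the AA against IGF1 values were 0.01, -0.32 and -0.65 (edgeR without the block). The block was not run with that scaling. The part of IGF1 replicates 2 and 3 in the order was not tested.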

How the results depend on the processing

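The count of called miR-22 profiles was 0 for AA against CTR under every alternative run. For IGF1 against CTR it was 0 except by the adjusted p of the replicate block alone, which gave 3. For AA against IGF1 it was 1 with DESeq2, RLE factors, no filter on low counts, the replicate block, and the block on distinct profiles. It was 15 by the adjusted p of the block alone and 4 with replicate number 1 left out of all groups. With single libraries left out it ranged from 0 to 4, the 4 being without IGF1 replicate 1. With IGF1 replicates 2 and 3 left out only effect sizes are given for the IGF1 comparisons, as 1 IGF1 library remains. The AA against IGF1 log2 fold change of gmo-miR-22a-3p passed at -0.92 with DESeq2 or RLE factors, -0.90 without the filter, -0.86 with the block, -0.83 with the block on distinct profiles and -1.18 with number 1 left out, and that of abu-miR-22b at -0.63 with number 1 left out. Where 4 profiles were called, they were the 3 near-equal profiles of the abu-miR-22b group and gmo-miR-22a-3p. Shares of all profiles called are given above for edgeR, DESeq2 and the replicate block. They were not computed under the other alternatives, so those counts have no background.

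Every log2 value that changed sign belonged to a result that was not called. Without composition factors AA against CTR was 0.053 for dre-miR-22a-3p, tni-miR-22a and ccr-miR-22a, 0.077 for dre-miR-22a-5p, 0.14 for dre-miR-22b-3p, 0.19 for dre-miR-22b-5p, 0.022 for abu-miR-22b, 0.086 for mze-miR-22b and 0.17 for gmo-miR-22a-2-5p. AA against IGF1 was then 0.0058 for dre-miR-22a-3p, tni-miR-22a and ccr-miR-22a, 0.14 for dre-miR-22a-5p and for dre-miR-22b-5p, and 0.024 for dre-miR-22b-3p. In AA against CTR dre-miR-22b-5p also changed sign, to 1.9e-05 with RLE factors, 0.022 with upper-quartile factors, 0.0058 with a higher count minimum, 0.043 with filterByExpr, 0.014 with distinct profiles or 2 groups, 0.0091 with zebrafish entries and 0.015 with the block on distinct profiles. The sparse gmo-miR-22a-2-5p was at 0.037 with upper-quartile factors, 0.046 with filterByExpr, 0.012 with distinct profiles, 0.013 with 2 groups, 0.0085 with the block and 0.024 with the block on distinct profiles.

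Leaving out number 2 gave AA against CTR values of 0.056 for dre-miR-22b-3p, 0.019 for dre-miR-22b-5p, 0.021 for mze-miR-22b and 0.19 for gmo-miR-22a-2-5p. Leaving out number 1 gave 0.0017 for dre-miR-22b-5p and 0.024 for gmo-miR-22a-2-5p in AA against CTR, -0.041 for dre-miR-22b-5p in IGF1 against CTR, and 0.00077 for dre-miR-22a-5p and 0.043 for dre-miR-22b-5p in AA against IGF1. Leaving out number 3 gave 0.032 for dre-miR-22b-5p in AA against CTR, 0.015 for dre-miR-22a-5p and 0.058 for gmo-miR-22a-2-5p in IGF1 against CTR, and -0.26 for gmo-miR-22a-2-5p in AA against IGF1. Leaving out IGF1 replicates 2 and 3 gave IGF1 against CTR values of -0.089 for dre-miR-22a-3p, tni-miR-22a and ccr-miR-22a, -0.11 for abu-miR-22b and -0.15 for gmo-miR-22a-3p. With the block as well, the values that changed sign were 0.0010 for dre-miR-22b-5p (AA against CTR) and 0.065 for dre-miR-22a-5p, -0.041 for dre-miR-22b-3p and -0.15 for gmo-miR-22a-3p (IGF1 against CTR).

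With single libraries left out, dre-miR-22a-5p ranged from -0.22 to 0.0084 (AA against CTR), -0.12 to 0.063 (IGF1 against CTR) and -0.19 to 0.0037 (AA against IGF1). In AA against CTR the ranges were -0.13 to 0.037 for dre-miR-22b-3p, -0.085 to 0.12 for dre-miR-22b-5p, -0.20 to 0.023 for mze-miR-22b and -0.41 to 0.23 for gmo-miR-22a-2-5p. In AA against IGF1 they were -0.76 to -0.38 for abu-miR-22b and -1.18 to -0.73 for gmo-miR-22a-3p. The log2 3p to 5p difference ranged from -0.12 to 0.052 for the a form (AA against CTR) and, for the b form, from -0.19 to 0.11 (AA against CTR), -0.011 to 0.19 (IGF1 against CTR) and -0.27 to 0.039 (AA against IGF1). The log2 a to b difference ranged from -0.22 to 0.13 (AA against CTR) and -0.15 to 0.20 (AA against IGF1) for the 3p arms, and from -0.040 to 0.056 (AA against IGF1) for the 5p arms. That of mze-miR-22b over mze-miR-22a ranged from -0.0042 to 0.10 (AA against CTR) and -0.094 to 0.0094 (AA against IGF1). The difference in share ranged from -0.17 to 1.00 (AA against CTR), -0.24 to 0.93 (IGF1 against CTR) and -0.39 to 0.50 percentage points (AA against IGF1).

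With salmon entries the b form arm difference was -0.16 for IGF1 against CTR and 0.0057 for AA against IGF1. The share of miR-22 differed by -0.169 percentage points (AA against CTR) and -1.06 (AA against IGF1) with miR-21 left out of the total, and by -0.0224 (AA against IGF1) over all species. The arm ratio of carp could not be run, as carp lists no arms. The replicate block changed no other call, and the causes of the changes above were not tested. With 3 libraries per group the exact permutation tests cannot reach 0.05, and the lowest cod entries are limited by depth.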
